A study of Macaca mulatta with 20 samples.

Results

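The genes described here encode succinate dehydrogenase (respiratory complex II), the cytochrome bc1 complex (complex III), cytochrome c, cytochrome c oxidase (complex IV) and ATP synthase (complex V), together with assembly factors of complexes II and IV. They were chosen by symbol, as names that read SDHA to SDHD or CYC1 and CYCS in full, or that begin with SDHAF, UQCR, COX4 to COX8, COX10 to COX19 or ATP5. Of 18288 genes in the table, 60 matched. The 53 with at least 10 counts in at least 5 of 20 libraries were kept: 6 genes of complex II, 10 of complex III, cytochrome c, 19 of complex IV and 17 of complex V. Genes were grouped by symbol, and ATP5S and ATP5SL stand with complex V without being counted as its subunits. RNA-seq had been run on liver biopsies of 10 rhesus monkeys (Macaca mulatta), which gave 4 groups of 5 libraries. These are caloric restriction (CR) at year 2, control diet (Control) at year 2, CR at year 0 and Control at year 0. Year 0 is enrolment in the study and year 2 follows 2 years of study diet in the same animal, so each animal is its own reference over time. The CR animals were 004, 007, 008, 011 and 012 and the Control animals were 001, 005, 006, 009 and 010, and lists of values below follow that order. Strain, age and the degree of restriction are not given in the labels used here. A biopsy is bulk tissue, so fewer cells of a type and less RNA per cell cannot be told apart in any value below.

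In the inner mitochondrial membrane, complex II passes electrons from succinate to ubiquinone, complex III passes them on to cytochrome c, and complex IV hands them to oxygen. Complexes III and IV pump protons, and ATP synthase uses the proton gradient to make ATP. Hepatocytes hold many mitochondria and use this chain to oxidise fatty acids and to pay for gluconeogenesis and urea synthesis. Most subunits are encoded in the nucleus. The subunits of complexes III, IV and V that mitochondrial DNA encodes were not analysed here.

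Library totals ran from 15421789 to 31440640 expected counts, and the 60 genes took 0.480% to 0.686% of them. Hepatocyte markers summed to 123300 to 270600 TPM (transcript abundance per length, scaled to a fixed library total) over the libraries, and all 15 were detected, as the tissue label has it. The Control libraries of animals 001 and 009 at year 2 stood apart. The log2 deviations of the kept genes from the Control year 0 mean had an interquartile range of 1.23 in 001 and 1.10 in 009, against 0.13 to 0.30 in the other 18 libraries. Animal 001 had 14 kept genes more than 1 above that mean and 4 more than 1 below it, and animal 009 had 2 above and 19 below. These deviations are of CPM (counts scaled by the TMM library size), and in 009 at year 2 the direction depended on the scale. That library had the lowest total and the highest TMM factor (1.66), and the 60 genes took 0.572% of its counts. Its complex V subunits summed to 7121 TPM, the highest of all libraries, but to 1572 CPM, the lowest. The direction counts and medians of the kept genes in each comparison are given with and without animals 001 and 009. The map of all libraries shows both as the columns with the strongest colours.

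**Figure D1:**
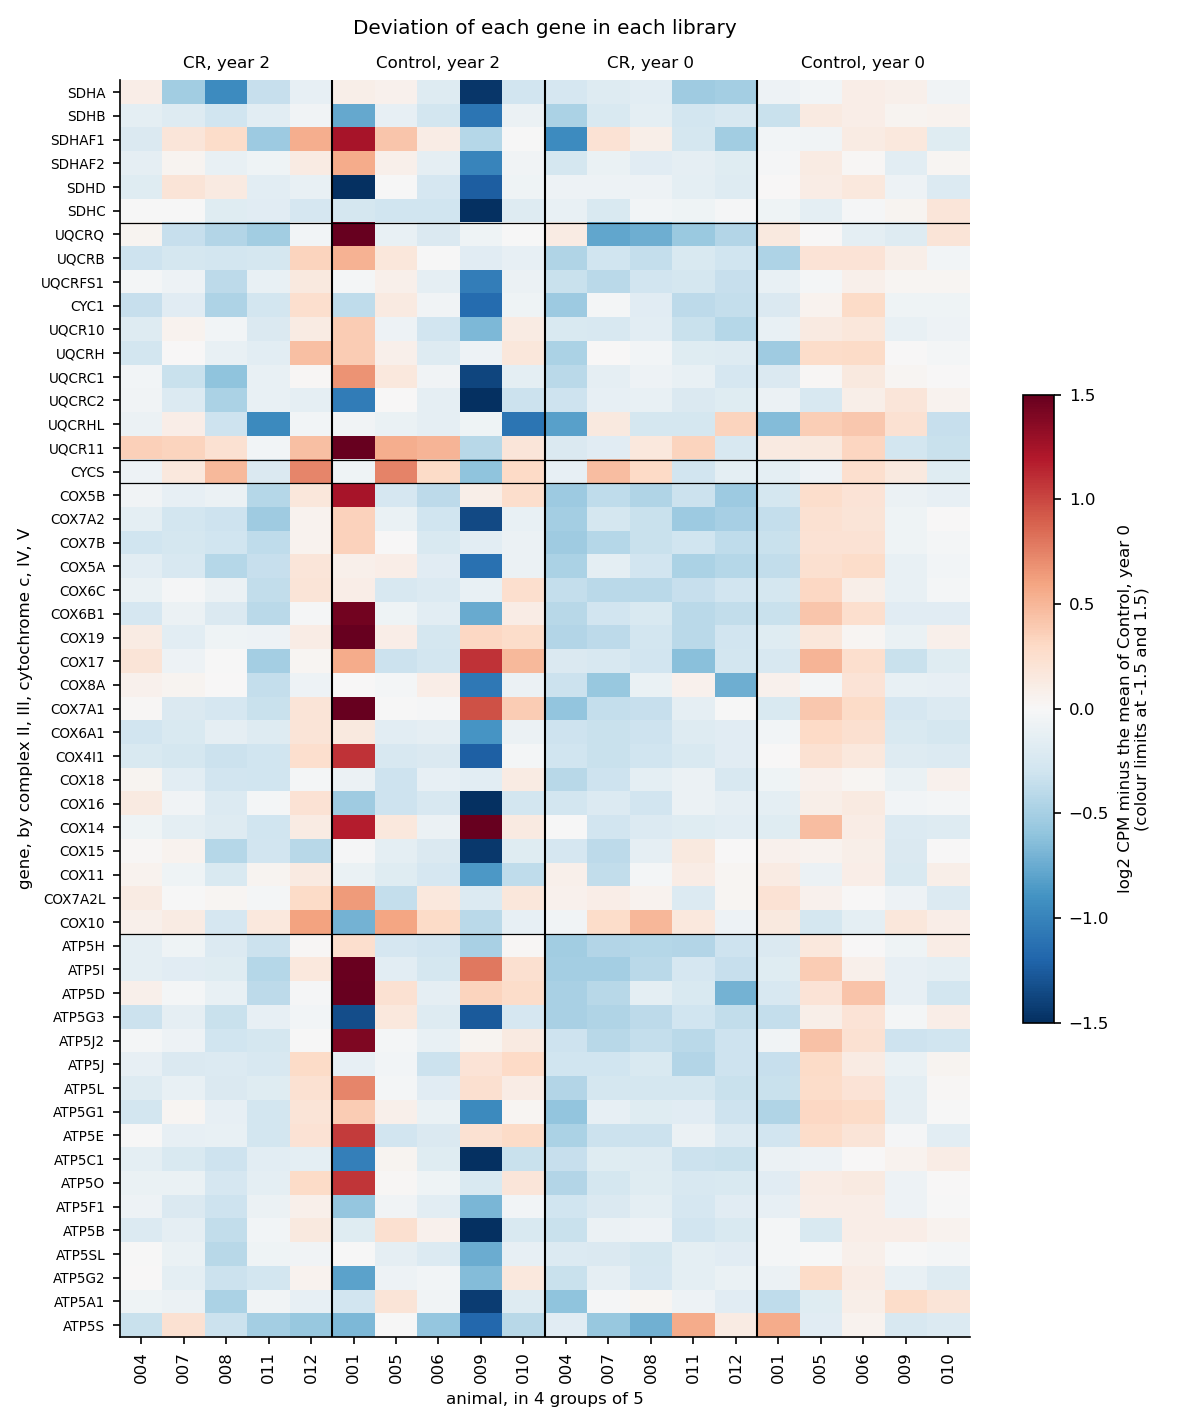
Log2 CPM of each kept gene (rows, ordered by complex) in each of 20 libraries (columns, by group and animal) minus the mean of the 5 Control year 0 libraries. Blue is lower and red is higher, and colours stop at -1.5 and 1.5. Control animals 001 and 009 at year 2 hold both the deepest red and the deepest blue cells, and the CR year 0 block is pale blue through most rows.

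ATP synthase and complex IV subunits were the most abundant transcripts. On the TPM scale the highest mean over the 20 libraries was that of COX7B, a small complex IV subunit, at 799.9 TPM (range 635 to 1235). Complex V was led by ATP5I (subunit e of the membrane part) at 719 TPM, ATP5E (epsilon of the central stalk) at 682 TPM and ATP5H (subunit d of the peripheral stalk) at 669 TPM. The catalytic head genes ATP5B (beta) and ATP5A1 (alpha) averaged 626 and 558 TPM. In complex III the hinge protein UQCRH was highest at 336 TPM and UQCRB was the lowest structural subunit at 34.8 TPM. In complex II the iron-sulfur subunit SDHB averaged 282 TPM, the flavoprotein SDHA 222 TPM and the membrane anchors SDHD 252 TPM and SDHC 72.3 TPM. Cytochrome c itself, CYCS, averaged 33.2 TPM.

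Assembly factors were lower than subunits, with exceptions. COX10, the farnesyltransferase of heme A synthesis, averaged 4.42 TPM, the insertase COX18 7.32 TPM, the heme A enzyme COX15 7.86 TPM and the copper-binding factor COX19 9.09 TPM. SDHAF1, which serves the iron-sulfur subunit of complex II, averaged 8.81 TPM, and SDHAF2, which adds flavin to SDHA, 31.9 TPM. The copper-site factor COX16 at 277 TPM and the copper chaperone COX17 at 229 TPM lay in the range of structural subunits. The lowest kept genes were ATP5S (factor B) at 2.34 TPM and UQCRHL, an intronless copy of UQCRH, at 2.36 TPM. Reads of UQCRHL and UQCRH can be split between them by the estimation, and COX16 also had fractional counts, so these levels are uncertain. ATP5G1, ATP5G2 and ATP5G3 encode the same mature subunit c and averaged 158, 237 and 147 TPM.

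Of the isoforms known from particular tissues, the general or liver forms dominated. COX4I1 (general form of subunit 4) averaged 533 TPM and COX4I2 (lung form) 0.352 TPM. COX6A1 (liver form of subunit 6A) averaged 463 TPM and COX6A2 (heart and muscle form) 0.245 TPM. COX6B1 averaged 399 TPM and COX8A 400.2 TPM, whereas the testis forms COX6B2 and COX8C averaged 0.0055 and 0.0815 TPM and COX7B2 had no count in any library. Subunit 7A was the exception. COX7A1, the heart and muscle form, averaged 133 TPM (range 84.7 to 367) beside 231 TPM (168 to 293) of COX7A2, the liver form. Skeletal muscle markers summed to 1.32 to 10.9 TPM, so COX7A1 was far above the muscle markers in these biopsies. COX7C, a general small subunit, had 2 to 12 counts per library and was not kept. Whether this low count reflects little transcript or missed reads was not tested. The 7 genes not kept (COX7C, COX4I2, COX6A2, COX6B2, COX7B2, COX8C and ATP5L2, a copy of ATP5L) never exceeded 16 counts.

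**Figure D2:**
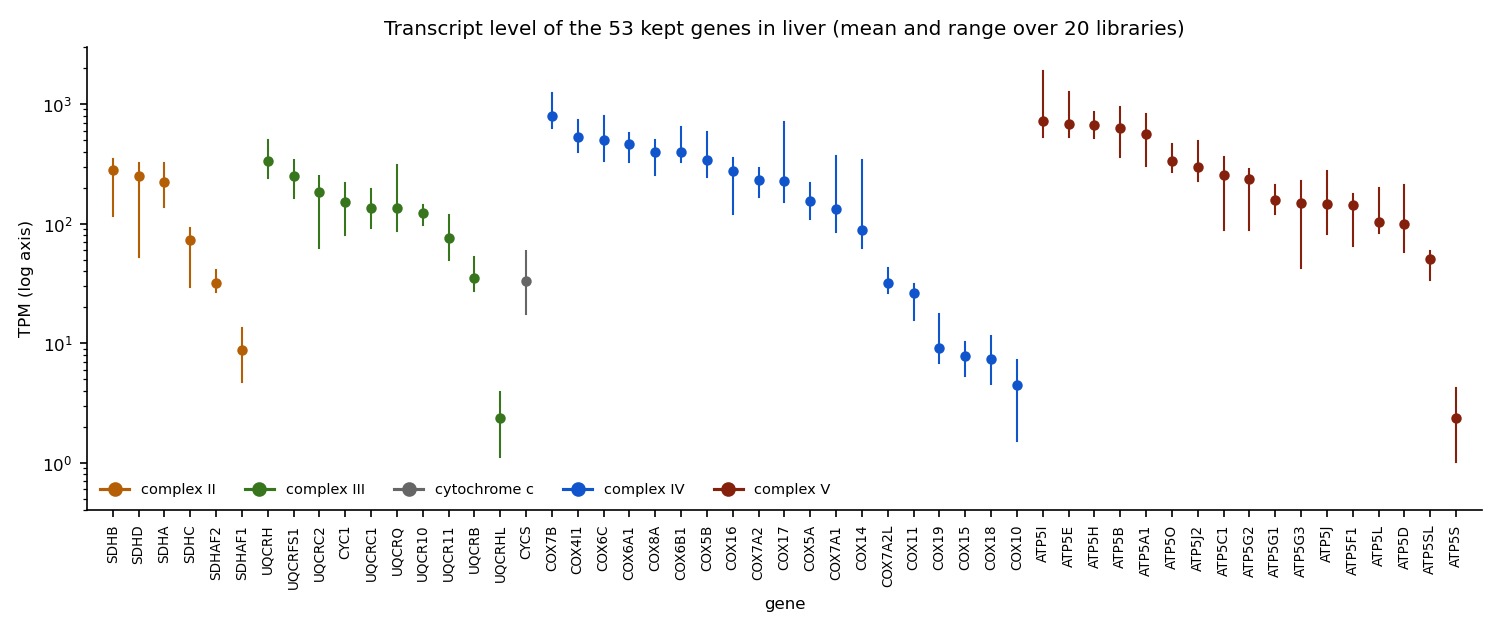
Mean (point) and range (line) over 20 libraries of the TPM of each kept gene, on a log axis, grouped and coloured by complex. Most subunits lie between 50 and 800 TPM, and the lower end is made up of assembly factors, UQCRHL and ATP5S.

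Summed over subunits, complex V amounted to 4956 ± 432 TPM in CR at year 2, 5801 ± 937 in Control at year 2, 4752 ± 279 in CR at year 0 and 5204 ± 204 in Control at year 0 (SD, n = 5 each, 15 genes). Complex IV (16 genes) amounted to 3805 ± 435, 4347 ± 393, 3599 ± 181 and 4076 ± 343 TPM in the same groups. Complex III (9 genes) came to 1392 ± 168, 1511 ± 219.9, 1356 ± 79.7 and 1437 ± 71.2 TPM, and complex II (4 genes) to 824 ± 27.2, 746 ± 260.5, 855.5 ± 58.3 and 888 ± 23.0 TPM. The per-subunit mean of complex V divided by that of complex II lay between 1.36 and 1.80 in 18 libraries and was 3.35 and 3.11 in Control 001 and 009 at year 2. Complex II summed to 378 TPM in Control 001 at year 2, against 779 to 846 TPM in the 5 CR libraries of that year. Without animals 001 and 009 the Control sums at year 2 were 914 ± 130.2 TPM for complex II, 1605 ± 227 TPM for complex III, 4313 ± 345 TPM for complex IV and 5707 ± 574 TPM for complex V (SD, n = 3).

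At enrolment, the transcripts of all these complexes averaged lower in the animals of the CR arm than in those of the Control arm, without a call by edgeR. In CPM at year 0, 50 of 53 kept genes were lower in CR, where 52.3% of 13244 tested genes were. The median log2 difference was -0.27, against -0.01 over all genes. No kept gene passed edgeR's quasi-likelihood test with adjusted p below 0.05, which called 0.242% of all genes. At an unadjusted p below 0.05, 31 kept genes were lower (9.07% of all genes) and 0 were higher. By DESeq2, 13 kept genes passed in the lower direction, against 2.36% of all genes. In 12 kept genes every CR animal lay below every Control animal, and 2.15% of all genes did so. This is a difference between the arms at enrolment.

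**Figure D3:**
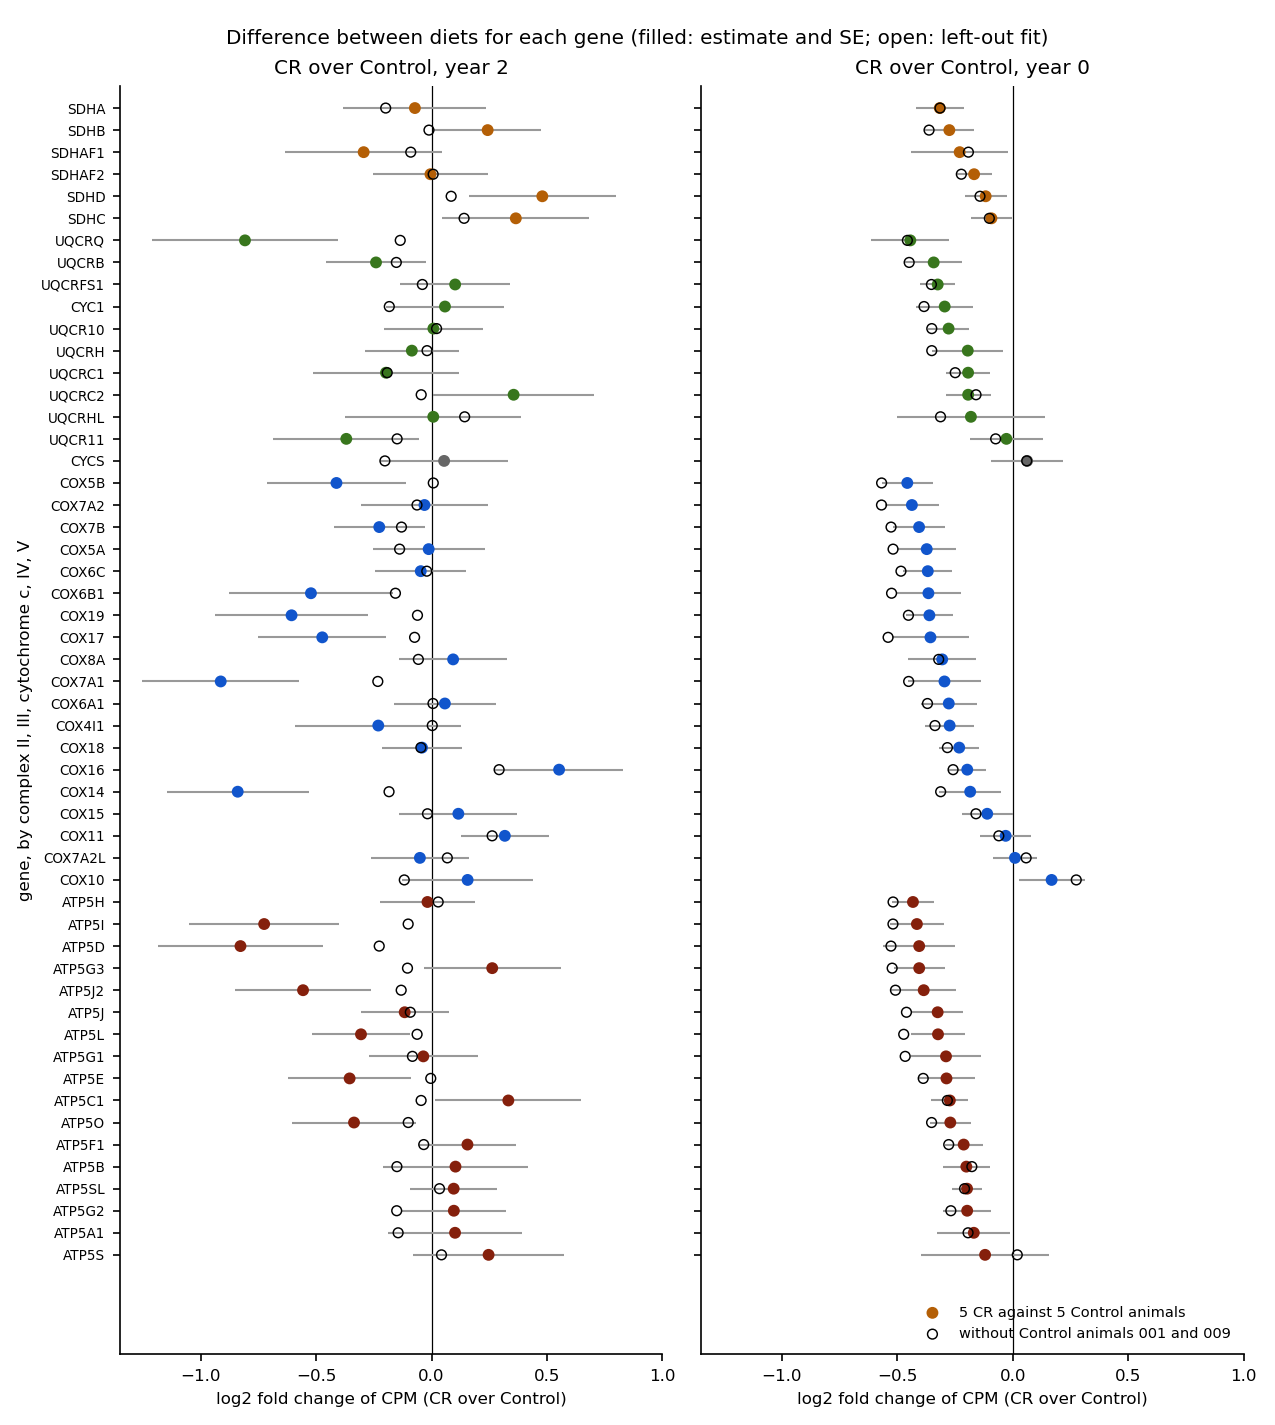
Log2 fold change of CPM, CR over Control, for each kept gene at year 2 (left) and year 0 (right). Filled points with lines are the estimate and its SE from 5 against 5 animals, coloured by complex, and open circles are the fit without Control animals 001 and 009. At year 0 nearly all points lie left of 0, and at year 2 the open circles lie close to 0.

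Of the genes grouped with complex V, 17 of 17 were lower in CPM in CR at year 0, 12 of them with an unadjusted p below 0.05, with a median of -0.29. ATP5H had 138, 146, 147, 146 and 159 CPM (counts scaled to a fixed total by the TMM library size) in the CR animals, against 171, 221, 199, 190.2 and 214 CPM in the Control animals. The groups did not overlap, and the log2 difference was -0.43 ± 0.09 (SE), with an edgeR adjusted p of 0.0686. ATP5C1, the gamma subunit that turns inside the head, had 130.2, 146, 145, 133 and 132 CPM in CR, against 156, 157, 166, 171 and 179 CPM in Control, a difference of -0.27 ± 0.08 (edgeR adjusted p = 0.127). The groups again did not overlap. The catalytic head genes differed less: ATP5B averaged 593 ± 48.3 CPM in CR and 683 ± 61.7 CPM in Control (SD, n = 5 each), and ATP5A1 averaged 562 ± 90.2 CPM in CR and 633 ± 115 CPM in Control. Their groups overlapped, and their differences were -0.20 ± 0.10 and -0.17 ± 0.16. Of the subunit c genes, ATP5G3 differed by -0.41 ± 0.11, ATP5G1 by -0.29 ± 0.15 and ATP5G2 by -0.20 ± 0.11. The peripheral stalk protein ATP5O (the oligomycin sensitivity protein), the stalk subunit ATP5F1 and the membrane subunit ATP5I were the other subunits of complex V whose groups did not overlap. ATP5SL, placed here by its symbol and not counted as a subunit, also had groups without overlap.

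Complex IV had 17 of 19 genes lower in CPM in CR at year 0, 11 of them with an unadjusted p below 0.05, with a median of -0.30. COX5B, the zinc-binding subunit, had 47.5, 53.4, 50.6, 55.4 and 47.6 CPM in CR, against 57.9, 83.1, 80.0, 65.3 and 63.9 CPM in Control. Every CR value was below every Control value, and the difference was -0.46 ± 0.11 (edgeR adjusted p = 0.0851). COX6C and COX19 were the other 2 non-overlapping genes of the complex, at -0.37 ± 0.11 and -0.36 ± 0.10. The liver isoform COX7A2 averaged 55.7 ± 4.77 CPM in CR and 75.6 ± 12.0 CPM in Control (-0.44 ± 0.12), and the muscle isoform COX7A1 averaged 33.6 ± 5.24 CPM in CR and 41.3 ± 9.36 CPM in Control (-0.30 ± 0.16). COX4I1, COX6A1, COX6B1, COX8A and COX5A differed by -0.27, -0.28, -0.37, -0.31 and -0.37. The 3 genes that were not lower were COX10 at 0.17 ± 0.14, COX7A2L (a factor that joins complexes III and IV) at 0.01 ± 0.10 and CYCS at 0.06 ± 0.15, and the sign of COX7A2L and CYCS turned when some single animals were left out. COX10 had 6.56, 8.20, 9.56, 7.55 and 6.46 CPM in CR and 7.50, 5.64, 6.13, 7.61 and 7.27 CPM in Control, and the groups overlapped.

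In complex III, 10 of 10 genes were lower in CPM in CR at year 0 (median -0.24). UQCRFS1, the Rieske iron-sulfur protein, had 136, 129, 140.1, 143 and 134 CPM in CR, against 158, 168, 181, 174 and 175 CPM in Control. The groups did not overlap, and the difference was -0.33 ± 0.08 (edgeR adjusted p = 0.0831). UQCR10, a small subunit, also had groups that did not overlap, at -0.28 ± 0.09. Cytochrome c1, CYC1, averaged 86.4 ± 12.2 CPM in CR and 106 ± 14.4 CPM in Control. The core proteins UQCRC1 and UQCRC2 both differed by -0.19 ± 0.10, and UQCR11 by -0.03 ± 0.16. In mean TPM, UQCR11 (68.0 against 61.7) and UQCRHL (2.490 against 2.486) were higher in CR, and the other genes of the complex were lower.

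In complex II, 6 of 6 genes were lower in CPM in CR at year 0 (median -0.20). SDHA had 279.5, 291, 298, 228 and 234 CPM in CR, against 314, 322, 356, 350.4 and 319 CPM in Control, without overlap (-0.32 ± 0.10, edgeR adjusted p = 0.156). SDHB averaged 157 ± 12.9 CPM in CR and 189.9 ± 23.2 CPM in Control. The membrane anchors differed little, SDHC by -0.09 ± 0.09 and SDHD by -0.12 ± 0.09. On the TPM scale their means were higher in CR, at 80.8 against 77.2 TPM for SDHC and 269 against 260 TPM for SDHD. The mean TPM of SDHA, SDHB, SDHAF1 and SDHAF2 was lower in CR.

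Several other measures moved with this difference. The kept genes are short: 41 of 53 lay in the shortest of 4 equal classes of tested genes by effective length. In that class 70.5% of all genes were lower in CR at year 0 (median -0.14), and 40 of the 41 kept genes were, with a median of -0.28. In the longest class 36.4% of all genes were lower, with a median of 0.08, and the 3 kept genes there had a median of -0.11. Macrophage markers summed to 1992 to 2496 TPM in CR and 1184 to 1832 TPM in Control, so the groups did not overlap, and 17 of 18 such genes were higher in CR. Among them MPEG1 (perforin-2, of phagocytes) was called at 1.62 ± 0.28 (edgeR adjusted p = 0.04999). In CPM, hepatocyte markers were lower for 12 of 15 genes with a median of -0.25, and the asialoglycoprotein receptor gene ASGR2 was called at -0.57 ± 0.09 (edgeR adjusted p = 0.0442). Their summed TPM was not lower in CR. It was 244600 to 255400 TPM (median 251800) in CR and 207800 to 257300 TPM (median 249200) in Control, and the groups overlapped. The lymphocyte marker CD4, a T cell co-receptor, which macrophages also express in some species, was called at 0.81 ± 0.12 (edgeR adjusted p = 0.0364). The part of gene length and of cell makeup in the difference was not tested.

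**Figure D4:**
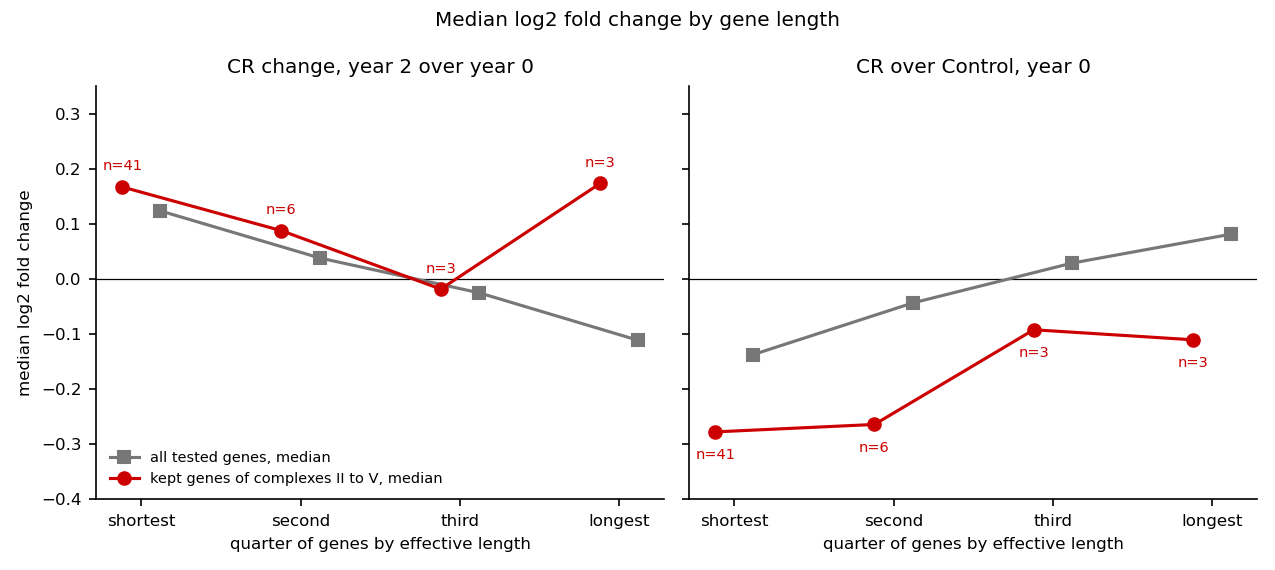
Median log2 fold change of all tested genes (grey squares) and of the kept genes (red circles, with their number) in 4 equal classes of effective length, shortest to longest, for the change in CR over the study (left) and for CR over Control at year 0 (right). The median of the shortest class of all genes was -0.14 for CR over Control at year 0 and 0.12 for the change within CR, and at year 0 the red circles lie below the grey squares in each class.

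Without Control animals 001 and 009, 49 of 53 kept genes were lower at year 0 (50.7% of all genes), with a median of -0.35. Then 8 kept genes passed edgeR's test at an adjusted p below 0.05, as did 1.69% of all genes: ATP5G3, ATP5H, ATP5J, ATP5L, COX5B, COX6C, COX7A2 and COX7B. Without animal 001 alone 9 passed, as did 2.55% of all genes, and without CR animal 004 alone 1 passed, as did 0.698% of all genes. On the log2(TPM + 1) scale the median of all genes shifted to 0.12 at year 0, and 43 of 53 kept genes were lower, against 27.2% of all genes. The median of the kept genes on that scale was -0.10, which is -0.22 relative to all genes, and limma called none of them and 2.90% of all genes.

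Over the study most of these transcripts had small positive changes in the restricted animals, none of which passed the test. In CR at year 2 against CR at year 0, 45 of 53 kept genes were higher, where 50.2% of 13730 tested genes were, and the median change was 0.16 against 0.0012 over all genes. edgeR with the animal as a block called 0 of them and 0% of all genes, with 0 kept genes and 1.14% of all genes higher at an unadjusted p below 0.05. DESeq2 also called 0 kept genes, and 0.131% of all genes, and limma on log2(TPM + 1) called 0 of either. On log2(TPM + 0.1) limma called 0 kept genes and 1 of 13730 genes. By complex, the medians were 0.21 for complex V (16 of 17 higher), 0.16 for complex IV (17 of 19), 0.17 for complex III (7 of 10) and 0.09 for complex II (4 of 6). In the shortest length class 69.9% of all genes were higher, with a median of 0.12, and 37 of 41 kept genes were, with a median of 0.17, so both had positive medians. On the log2(TPM + 1) scale 31 of 53 kept genes were higher (33.0% of all genes), with a median of 0.05 against -0.08. Without animals 001 and 009 the count was 45 of 53 (49.6% of all genes), with a median of 0.16. The CR libraries of year 0 enter both this change and the year 0 difference, so the opposite signs are not independent of each other.

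ATP5H had the smallest p. It had 179, 190.0, 171, 159 and 201 CPM in CR at year 2, against 138, 146, 147, 146 and 159 CPM in CR at year 0, and was higher at year 2 in each animal. The change was 0.29 ± 0.18, with an edgeR adjusted p of 0.999. COX6C averaged 128 ± 17.7 CPM at year 2 and 104 ± 3.55 CPM at year 0 in CR (0.28 ± 0.18), and COX19 averaged 9.31 ± 0.82 and 7.30 ± 0.37 CPM (0.35 ± 0.26). The lowest were COX15 at -0.09 ± 0.20, ATP5S at -0.15 ± 0.34 and UQCRHL at -0.10 ± 0.36. Several defining subunits had changes near 0: SDHA at -0.04 ± 0.27, SDHC at -0.03 ± 0.26, UQCRC1 at -0.02 ± 0.27, UQCRC2 at -0.01 ± 0.30 and ATP5A1 at 0.01 ± 0.28. Others were SDHB at 0.10 ± 0.18, SDHD at 0.09 ± 0.24, CYC1 at 0.10 ± 0.20, UQCRFS1 at 0.24 ± 0.20, CYCS at 0.18 ± 0.23, COX4I1 at 0.10 ± 0.25, COX5A at 0.16 ± 0.20, COX5B at 0.35 ± 0.26 and ATP5B at 0.08 ± 0.27.

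The animals differed in how much they contributed. The median change of the kept genes was 0.37 in animal 012 (49 of 53 higher), 0.26 in 004 (48 of 53), 0.15 in 007 (37 of 53), 0.03 in 008 (30 of 53) and 0.01 in 011 (30 of 53). Without animal 012 the CR median was 0.09. In every CR animal 11 of the kept genes had more at year 2, as did 6.55% of all genes: ATP5G3, ATP5H, ATP5J, ATP5J2, ATP5L, COX6A1, COX16, COX17, COX19, SDHAF2 and UQCR10. The flavoprotein gene SDHA did not move in one direction, with 354, 232, 173, 260.1 and 305 CPM in CR at year 2, against 279.5, 291, 298, 228 and 234 CPM in CR at year 0.

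**Figure D5:**
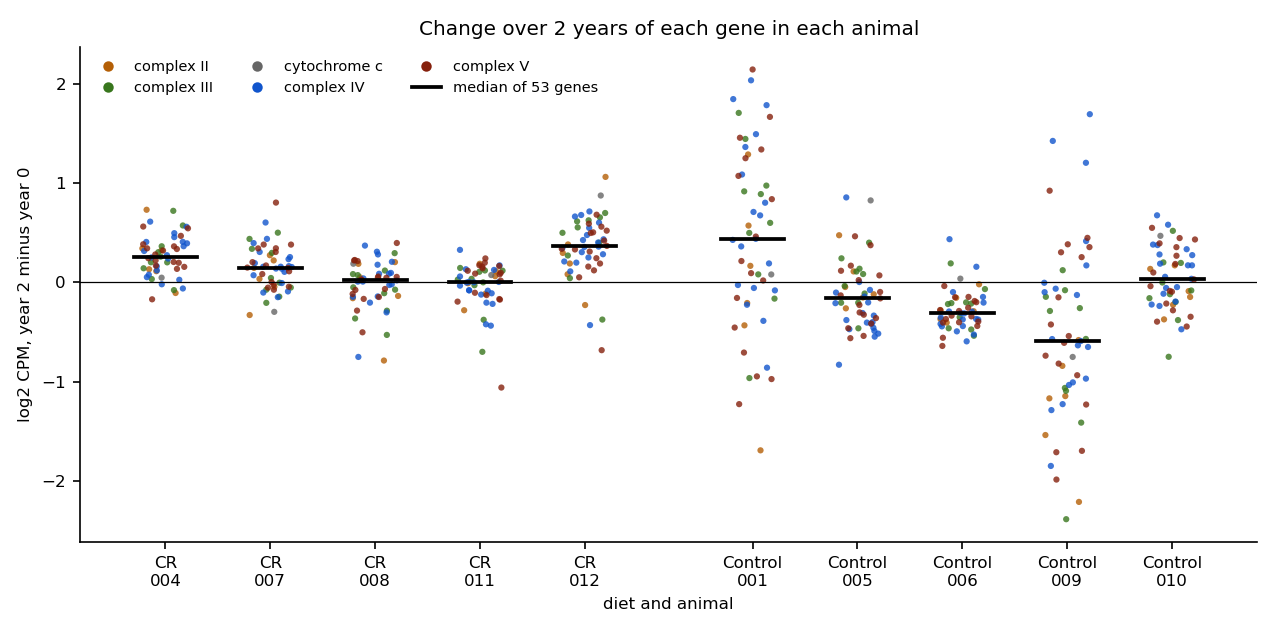
Log2 CPM at year 2 minus year 0 of each kept gene (points, coloured by complex) in each CR animal (left) and Control animal (right), with the median of the 53 genes as a bar. Medians run from 0.01 to 0.37 in CR and from -0.59 to 0.44 in Control, and animals 001 and 009 have the widest spread.

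In the Control animals the changes in CPM scattered around a small negative median. In Control at year 2 against Control at year 0, 33 of 53 kept genes were lower, where 49.6% of all genes were, and the median was -0.12. On the log2(TPM + 1) scale the median of the kept genes was 0.0008 against 0.12 over all genes, which is -0.12 relative to all genes. edgeR called 0 kept genes and 0 of 13730 genes. DESeq2 called 0 kept genes and 1.56% of all genes, and limma called 0 of either. At an unadjusted p below 0.05, 8 kept genes were lower, against 7.49% of all genes. They were COX16, ATP5G3, ATP5C1, SDHD, SDHB, the copper delivery factor COX11, UQCRC2 and SDHC. Of the 4 subunits of complex II, 3 were among them. In animals 001, 005, 006, 009 and 010, SDHD changed by -1.69, -0.12, -0.40, -1.17 and 0.14 in log2 CPM. SDHC changed by -0.21, -0.15, -0.28, -2.21 and -0.37, and SDHB by -0.43, -0.26, -0.37, -1.14 and -0.15. Without animals 001 and 009, 1 kept gene had an edgeR unadjusted p below 0.05 in either direction. COX16 had 33.8, 39.7, 41.5, 13.2 and 40.7 CPM in Control at year 2, against 44.2, 52.4, 53.8, 47.7 and 48.0 CPM in Control at year 0, and was lower in each animal. The change was -0.64 ± 0.22 (edgeR adjusted p = 0.309) and -0.32 ± 0.12 without animals 001 and 009. ATP5G3 had -0.57 ± 0.20 and ATP5C1 -0.68 ± 0.26, and without those animals the values were -0.21 ± 0.15 and -0.15 ± 0.15. The positive values with the smallest p were 0.61 ± 0.31 for COX7A1, 0.57 ± 0.27 for COX14 (an assembly factor of complex IV) and 0.48 ± 0.23 for UQCR11. Without animals 001 and 009 they were -0.03, -0.04 and 0.39, so the sign of COX7A1 and COX14 turned.

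Control medians per animal, in log2 CPM, were 0.44 in 001, -0.16 in 005, -0.31 in 006, -0.59 in 009 and 0.03 in 010. Without animal 001 the median over the Control animals was -0.26, and without animal 009 it was 0.01. Without 001 and 009, 45 of 53 kept genes were lower (47.8% of all genes) and the median was -0.14. In 6 kept genes the value was lower in 5 of 5 Control animals, against 4.81% of all genes: ATP5F1, COX11, COX15, COX16, SDHB and SDHC. Cell type markers moved with the Control change. Hepatocyte markers were lower for 14 of 15 genes (median -0.40), and their sum was 123300 to 242800 TPM in Control at year 2, against 207800 to 257300 TPM in Control at year 0. Macrophage markers were higher for 16 of 18 genes (median 0.40), endothelial markers for 9 of 11 (median 0.33) and stellate cell markers for 10 of 12 (median 0.37), with 0 of these genes called by edgeR. The endothelial sum was 606 to 3946 TPM in Control at year 2, against 379.6 to 714 TPM in Control at year 0, and the stellate sum was 147 to 1443 TPM, against 283 to 432 TPM. The median sums at year 2 and year 0 were 796.5 and 545 TPM for endothelial and 358.7 and 298.7 TPM for stellate markers. For hepatocyte markers they were 213800 and 249200 TPM. All these marker counts and sums include animals 001 and 009. The part of the cell types in the change was not tested. Within the year 2 libraries of 001 and 009, the shorter 26 kept genes had median deviations of 0.38 and -0.20 from the Control year 0 mean, and the longer 26 had -0.07 and -1.02. In both libraries the shorter kept genes thus deviated upward relative to the longer ones. Over all genes the shortest length class lay at 0.49 and the longest at -0.42 in 001, and at -0.11 and 0.08 in 009, so the order was the opposite in 009.

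Whether the change differed between the diets was tested as CR change minus Control change. This difference was positive for 43 of 53 kept genes, where 50.6% of all genes were positive, with a median of 0.25 against 0.0076. The libraries of year 0 enter both this value and the year 0 difference between the arms, so these are not independent. The median log2 difference between the arms, CR over Control, was -0.27 at year 0 and -0.03 at year 2. edgeR and limma called 0 genes, and DESeq2 called 0 kept genes and 0.299% of all genes. At an unadjusted p below 0.05, 3 kept genes were positive by edgeR, against 2.64% of all genes. These were COX16 at 0.85 ± 0.30 and ATP5G3 at 0.78 ± 0.28 (edgeR adjusted p = 0.681 for both), and SDHB at 0.57 ± 0.26 (edgeR adjusted p = 0.720). COX16 was the single kept gene with a positive change in each CR animal and a negative one in each Control animal, a pattern of 0.255% of all genes. The most negative by p were COX14 at -0.52 ± 0.38, COX7A1 at -0.45 ± 0.43 and UQCR11 at -0.18 ± 0.32. By complex the medians were 0.44 for complex II (6 of 6 positive), 0.17 for complex III (8 of 10), 0.20 for complex IV (14 of 19) and 0.32 for complex V (14 of 17). Without animals 001 and 009, 50 of 53 were positive (48.4% of all genes), the median was 0.27, and COX16, ATP5G3 and SDHB had 0.53 ± 0.15, 0.41 ± 0.19 and 0.34 ± 0.18. COX14 and COX7A1 then had 0.09 and 0.19, with the sign turned, and UQCR11 had -0.10. The medians by complex were then 0.20, 0.27, 0.33 and 0.27 for complexes II, III, IV and V. Length moved with the difference too, but little with all animals in the fit. Then 54.9% of all genes in the shortest length class were positive (median 0.06), against 48.4% in the longest (median -0.02). Of the 41 kept genes in the shortest class, 9 were negative (median 0.23). Without animals 001 and 009, 64.4% of all genes in the shortest class were positive (median 0.17), against 35.2% in the longest (median -0.14). Of the 41 kept genes in the shortest class, 40 were then positive (median 0.31). The part of length was not tested. Without animal 001 alone the median was 0.37, and without animal 009 alone it was 0.14. On the log2(TPM + 1) scale 27 of 53 kept genes were positive (27.5% of all genes), with a median of 0.0049 against -0.20 over all genes, which is 0.20 relative to all genes. Macrophage markers ran the other way in this difference, with 17 of 18 negative. Hepatocyte markers ran with it, with 15 of 15 positive and a median of 0.49. These marker counts include animals 001 and 009, and the part of the cell types in the difference was not tested.

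After 2 years of diet no kept gene passed the test between the arms, and the signs were mixed. At year 2, 30 of 53 kept genes were lower in CR than in Control, where 56.3% of 13345 tested genes were, and the median was -0.03 against -0.07. On the log2(TPM + 1) scale the median was -0.04 against -0.08. edgeR called 0 kept genes and 0 of 13345 genes. DESeq2 called 0 kept genes and 0.0529% of all genes, and limma called 0 of either. At an unadjusted p below 0.05, 4 kept genes were lower, against 5.88% of all genes: COX14, COX7A1, ATP5D (delta of the central stalk) and ATP5I. COX7A1 had 41.0, 34.9, 34.0, 32.1 and 46.4 CPM in CR at year 2, against 141, 40.4, 39.9, 78.6 and 52.6 CPM in Control at year 2. The 2 highest Control values belonged to animals 001 and 009. The difference was -0.91 ± 0.34 (edgeR adjusted p = 0.659) and -0.23 ± 0.16 without them. COX14 had a difference of -0.84 ± 0.31, ATP5D of -0.83 ± 0.36 and ATP5I of -0.73 ± 0.32, and without these animals -0.18, -0.23 and -0.10.

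COX16 was the single kept gene whose groups did not overlap at year 2, and 0.375% of all genes were higher in CR without overlap, while 0.382% were lower. It had 53.7, 47.4, 42.7, 48.2 and 57.1 CPM in CR, against 33.8, 39.7, 41.5, 13.2 and 40.7 CPM in Control. The lowest CR value and the highest Control value were close, and the difference was 0.55 ± 0.28 (edgeR adjusted p = 0.659), or 0.29 ± 0.13 without animals 001 and 009. COX11 and SDHD were next among the genes higher in CR, at 0.32 ± 0.19 and 0.48 ± 0.32, and without these animals at 0.26 and 0.08. Without these animals 39 of 53 kept genes were lower in CR (51.0% of all genes), with a median of -0.06; without animal 001 alone the median was 0.05 and without 009 alone -0.12. Without both, no kept gene had a difference beyond -0.23 or 0.29. The SE of the kept genes was 0.17 (COX18) to 0.40 (UQCRQ) with all animals and 0.12 (SDHAF2) to 0.41 (UQCRHL) without these. Of the defining subunits, SDHA differed by -0.07 ± 0.31, SDHB by 0.24 ± 0.23, UQCRC2 by 0.36 ± 0.35, CYC1 by 0.06 ± 0.26, CYCS by 0.05 ± 0.28, COX4I1 by -0.23 ± 0.36, ATP5A1 by 0.10 ± 0.29, ATP5B by 0.10 ± 0.31 and ATP5H by -0.02 ± 0.21 at year 2. Without animals 001 and 009 the differences of SDHA, SDHB, UQCRC2, CYC1 and CYCS were -0.20, -0.01, -0.04, -0.18 and -0.20, and those of COX4I1, ATP5A1, ATP5B and ATP5H were 0.0030, -0.14, -0.15 and 0.03.

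The kept genes varied less among libraries than the typical gene, without a match for abundance, and most varied together only over the 16 libraries without animals 001 and 009. The median SD of log2 CPM was 0.35 for the kept genes and 0.45 for all tested genes over 20 libraries, and 0.23 and 0.31 over the 16 libraries without animals 001 and 009. The correlation of each kept gene with the median of the others had a median r of 0.55 over 20 libraries and 0.78 over 16, and 18 of 53 exceeded 0.7 over 20 libraries and 32 of 53 over 16. Of the other genes among the 13730 tested, 270 and 479 exceeded an r of 0.7 with the median of the kept genes over 20 and 16 libraries. The least alike over 16 libraries were SDHC at -0.09, COX11 at -0.07, COX10 at -0.03 and ATP5S at -0.02. Outside the rule, the genes whose log2 CPM was most like the median of the kept genes over 20 libraries were HYPK (r = 0.90), MRPL24 of the mitochondrial ribosome (r = 0.89) and NDUFA7 of complex I (r = 0.89). Over 16 libraries NDUFA13 of complex I (r = 0.93) and MINOS1 (r = 0.91) were among the most alike. These r describe libraries that share depth, animals and groups.

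Lists of other mitochondrial genes were counted in the same fits. At year 0, 36 of 36 complex I subunit genes were lower in CR, with a median of -0.28, and 27 of 33 tested assembly factors outside the rule were, with a median of -0.17. Of 11 subunits and inhibitors outside the rule 10 were lower (median -0.28), of 26 genes of mitochondrial mass and protein import 23 were (median -0.13), and of 16 carriers and porins 14 were (median -0.12). None of these lists held a gene called by edgeR. Among the carriers, the pyruvate carrier subunit MPC2 had -0.46 ± 0.09 (edgeR adjusted p = 0.0617) and the uncoupling protein gene UCP2 0.73 ± 0.17 (edgeR adjusted p = 0.0820). The smallest p in complex I and the assembly factors belonged to NDUFB7 at -0.37 ± 0.09 and CMC1, a copper-handling factor of complex IV, at -0.34 ± 0.09. The regulators of respiratory genes were split, with 9 of 22 lower and a median of 0.05. In CR over the study the medians were 0.19 for complex I, 0.09 for the assembly factors, 0.15 for the subunits and inhibitors, 0.12 for mass and import, 0.12 for the carriers and -0.03 for the regulators, with 0 genes called.

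Only 4 matching genes had more than 1 transcript in the transcript table. For ATP5SL the second transcript gave 88.0% to 94.7% of the gene's TPM in CR at year 2, 59.7% to 98.4% in Control at year 2, 89.1% to 96.2% in CR at year 0 and 88.3% to 96.4% in Control at year 0. The main transcripts of COX15, UQCR10 and UQCRB gave at least 82.6% in every library.

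The authors' deposited table of fold changes lists 20 of the genes, without naming the comparison. In the authors' deposited table all 20 log2 fold changes were above 0, as were 61.2% of its 3071 genes. An adjusted p below 0.05 stands there for 2 of the 20 and for 16.7% of all its genes. These are ATP5G3 with a log2 fold change of 0.66 (adjusted p = 0.0238) and COX16 with 0.73 (adjusted p = 0.0455), both as given in the authors' deposited table. Which group is on top of its fold is not stated.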

How the data were processed

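Per the file headers, the authors' gene and transcript tables hold expected counts and TPM (scaled by length and library). A further table deposited by the authors gives, for each gene, a mean normalized signal, a log2 fold change and a raw and adjusted p-value, and its comparison is not named. STAR, RSEM and DESeq2 and the build Mmul_8.0.1 (rheMac8) stand in the submitters' processing notes, with no roles or versions. RNA was sequenced as paired reads from a TruSeq library, per the labels' protocols, and whether counting used strand is not given in the sources used here.

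Expected counts were rounded and fitted with edgeR 4.0.16 (R 4.3.3, TMM scaling, filterByExpr, robust quasi-likelihood test), with Benjamini-Hochberg adjustment over all tested genes and a threshold of 0.05. Changes over time and the interaction came from 20 libraries with the animal as a block, since the labels give both libraries of an animal its number, and differences between the arms from the 10 libraries of a year. Deviations of the 2 libraries of an animal from their group means had r from -0.25 to 0.16. The SE is the log2 change divided by the root of F. CPM per sample used TMM library sizes. DESeq2 1.42.0, limma 3.58.1 on log2(TPM + 1) or log2(TPM + 0.1), RLE scaling, other filters, no block and left-out animals were alternatives. Effective length was counts divided by TPM, and the length classes were added after the data were seen. The fits were tested on simulated data.

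The genes, lists and the doubt about animals 001 and 009 were chosen with earlier results of these data known. Genes named per comparison are the 3 with the smallest p in each direction, any called, and a panel of tissue isoforms and defining subunits, and others were named after their values were seen. Authors' FPKM were not used. Gene coordinates and sequences are not used here. A gene outside the set that was among the most alike over 16 libraries is not reported here.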

Additional observations from a re-analysis of the deposited data

Results flagged for a closer look

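In 236 groups of 5 values (log2 CPM of each of the 53 kept genes, their median deviation and the complex sums), 28 held 1 sample whose gap to its nearest neighbour was large for the range of its group (Dixon's test), and chance flags about 1 in 20 groups. The groups share libraries and genes, and most flags fell on animals 009, 001 and 012 at year 2. The flags are thus not separate events. Control animal 009 at year 2 was lowest for ATP5B (223.6 CPM), SDHA (120.8 CPM), UQCRFS1 (83.25 CPM), COX8A (40.42 CPM), SDHC (33.93 CPM), COX5A (33.27 CPM), ATP5SL (30.3 CPM), COX15 (14.45 CPM) and COX16 (13.24 CPM). Control animal 001 at year 2 was highest for UQCRQ (404.8 CPM), ATP5D (170.8 CPM) and ATP5J2 (156.4 CPM). CR animal 012 at year 2 was highest for the summed TPM of complex IV (4556 TPM) and complex V (5699 TPM), and for COX4I1 (261.9 CPM), ATP5O (153.3 CPM), COX7B (152.3 CPM), UQCRB (126.6 CPM), ATP5L (75.86 CPM) and ATP5J (60.63 CPM). CR animal 008 at year 2 was lowest for ATP5A1 (448.9 CPM) and ATP5SL (38.09 CPM). At year 0, CR animal 011 was lowest for COX17 (13.74 CPM) and COX7A2L (14.9 CPM), Control animal 001 was lowest for SDHB (149.5 CPM), Control animal 009 was lowest for COX15 (33.83 CPM), and Control animal 006 was highest for ATP5SL (53.43 CPM). UQCRHL was lowest in Control animal 010 at year 2 (0.2288 CPM).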

How the results depend on the processing

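The count of kept genes called was 0 in the CR change, the Control change, the interaction and the year 2 difference under every alternative run. For CR over Control at year 0 it was 0 by edgeR, 13 by DESeq2, 8 without animals 001 and 009, and 0 to 9 leaving out each animal in turn. Of the values of genes with the smallest p in each direction under alternatives, 518 kept their direction and side of the threshold, 8 passed it only under the alternative, all at year 0, and 14 changed sign, none of them called. Without animals 001 and 009, COX14 had -0.04118 and COX7A1 -0.02842 in the Control change, and 0.08696 and 0.1914 in the interaction. Leaving out each animal in turn moved UQCR11 in the interaction between -0.3682 and 0.04169, ATP5S and UQCRHL in the CR change between -0.3859 and 0.0899 and between -0.3034 and 0.05117, and CYCS and COX7A2L at year 0 between -0.05385 and 0.1387 and between -0.03313 and 0.06578. It moved the median log2 value between 0.09 and 0.19 for the CR change, -0.26 and 0.01 for the Control change, 0.14 and 0.37 for the interaction, -0.12 and 0.05 at year 2 and -0.31 and -0.22 at year 0. Without the replicate block for the animal the medians were 0.17 for the CR change, -0.07 for the Control change and 0.22 for the interaction, and the block changed no call. Log2 ratios of the complex sums, CR over Control at year 0, were -0.05, -0.08, -0.18 and -0.13 for complexes II, III, IV and V in TPM and -0.2235, -0.2684, -0.3475 and -0.259 in CPM, and for complex V at year 2 -0.23 in TPM and -0.002406 in CPM. The cause was not tested. ATP5S and UQCRHL, with few counts, had the largest SE at year 0 and in the CR change.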
